A study of Mus musculus with 2 samples.

Results

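The genes described here build and load the class I molecules of the mouse major histocompatibility complex (MHC). They are 9 of the 21938 protein-coding genes of the annotation: the heavy chains H2-K1 and H2-D1, the light chain B2m, the transporter genes Tap1 and Tap2, the loading factor Tapbp, the immunoproteasome subunits Psmb8 and Psmb9, and the regulator Nlrc5. They were taken by name for their place in the pathway, and each was examined over its gene body with 5 kb added on each side, called its territory below. The data were DNase-seq, an assay in which the enzyme DNase I cuts accessible chromatin and the cut sites are sequenced. The tissue was thymus from 2 female mice aged 25 days of the strain B6CASTF1/J, a hybrid of C57BL/6J with CAST, with 1 library per animal. There was 1 group with no treatment or second condition, so values are given per library and no test between conditions applied. Both animals carry a CAST allele of every autosomal gene, and the deposited tables are on the mm10 reference and do not separate the alleles.

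Class I molecules display peptides cut from the proteins made inside a cell, so that cytotoxic T cells can inspect them. The proteasome cuts the peptides, the TAP transporter carries them into the endoplasmic reticulum, tapasin holds an empty class I molecule next to the transporter, and the loaded complex of heavy chain, light chain and peptide moves to the cell surface. In the thymus these complexes are what developing CD8 T cells are selected on. Most of these genes answer to interferon, and their promoters are known for a shared module of boxes, among them an X2 box that resembles a cAMP response element and a Y box bound by NF-Y, on which NLRC5 acts as a co-activator.

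The sequences below show the letters TGACG in these promoters, where both libraries had footprints, which are short stretches protected from cutting inside accessible DNA. A motif match is called footprinted here where its midpoint lies in a footprint. Each 30-base window is on the strand given with its position and was read from the GRCm38.p6 reference (RefSeq promoter windows for H2-K1, H2-D1, B2m, Tap1 and Psmb9). Capitals mark the letters TGACG, the core of the X2 box and also part of a cAMP response element. The letters alone do not show that a window is an X2 box: a Y box at the matching distance downstream was found in H2-K1, H2-D1 and B2m and at neither of the other sites. The windows lie at chr17:34000372-34000401 (minus strand, H2-K1), chr17:35262981-35263010 (plus, H2-D1), chr2:122147597-122147626 (plus, B2m), chr17:34187458-34187487 (plus, the strand of Tap1, before the Tap1 start and inside the Psmb9 gene body as GENCODE annotates it) and chr17:34197649-34197678 (plus, Psmb8).
H2-K1 TGACG window: gtccggacactgtTGACGcgcagtcagctc
H2-D1 TGACG window: ccgggacactgaTGACGcgctggcaggtct
B2m TGACG window: ctaggagactggTGACGacctccggatctg
Tap1 and Psmb9 TGACG window: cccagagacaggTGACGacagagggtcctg
Psmb8 TGACG window: gggcccggtgtgTGACGtcagcagttcctg
The match was footprinted in both libraries at all 5 windows. In Psmb8 the letters run on into the full palindrome TGACGTCA, which holds TGACG on either strand.

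Longer stretches follow, because they show the whole protected pattern of a promoter at single-base resolution. Capitals here mark bases that lay in a footprint of both libraries. The H2-K1 stretch is chr17:34000348-34000597 on the minus strand, the B2m stretch chr2:122147437-122147685 on the plus strand, the Psmb8 stretch chr17:34197561-34197720 on the plus strand and the Nlrc5 stretch chr8:94434181-94434355 on the plus strand. Each ends next to the gene's annotated start and overlaps no annotated exon.
H2-K1 promoter: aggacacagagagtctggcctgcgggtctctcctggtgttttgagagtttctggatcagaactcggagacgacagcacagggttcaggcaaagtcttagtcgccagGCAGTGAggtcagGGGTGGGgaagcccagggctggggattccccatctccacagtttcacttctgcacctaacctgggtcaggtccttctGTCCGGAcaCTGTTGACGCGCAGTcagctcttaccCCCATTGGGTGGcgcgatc
B2m promoter: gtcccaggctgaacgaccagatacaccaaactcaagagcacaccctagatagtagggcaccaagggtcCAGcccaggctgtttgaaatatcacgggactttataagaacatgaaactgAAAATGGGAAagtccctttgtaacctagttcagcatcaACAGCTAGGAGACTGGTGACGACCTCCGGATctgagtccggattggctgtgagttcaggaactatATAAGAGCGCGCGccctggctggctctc
Psmb8 promoter: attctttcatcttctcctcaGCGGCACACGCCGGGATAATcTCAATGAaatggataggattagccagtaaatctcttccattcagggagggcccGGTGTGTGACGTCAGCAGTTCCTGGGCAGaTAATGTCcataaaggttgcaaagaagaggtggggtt
Nlrc5 promoter: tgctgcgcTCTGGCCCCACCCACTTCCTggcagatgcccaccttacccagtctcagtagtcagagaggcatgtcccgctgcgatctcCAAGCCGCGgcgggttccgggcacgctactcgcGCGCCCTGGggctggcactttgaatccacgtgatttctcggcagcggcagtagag
In H2-K1 the protected bases included the X2 core and, closer to the start, the letters ATTGG, the Y box CCAAT read on the other strand. In B2m the single longest protected run held the X2 core, and a further run lay next to the start. The Nlrc5 stretch held neither TGACG nor CCAAT on either strand.

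The libraries differed in how much was called, and every count below should be read with that. Replicate 1 had 127552 peaks and replicate 2 had 67270, a ratio of 1.90. Footprints numbered 363775 and 203939, and bases with a false discovery rate (FDR) below 0.05 came to 44.8 and 23.2 Mb. Of the replicate 2 peaks 88.8% overlapped a replicate 1 peak by at least 1 bp, and of the replicate 1 peaks 46.9% had a partner in replicate 2. The total number of cuts per library is not given in the sources used here, so its part in these differences was not tested. The label thymus was checked against marker genes: a promoter peak, within 1 kb on either side of the start, was present at 12 of 12 thymocyte markers in replicate 1 and at 11 in replicate 2, where Ptprc lacked one. The counts were 5 and 4 of 9 for thymic epithelium and 3 and 1 of 6 for B cells. They were 4 and 4 of 8 for myeloid and dendritic cells, and 5 and 5 of 8 for stroma and endothelium. The background share, taken over the whole annotation, was 61.7% for replicate 1 and 55.1% for replicate 2. None of the lists other than thymocytes stood clearly above it, so their counts do not tell whether those cells were present. In this tissue of mixed cells a weak peak in many cells and a strong peak in few cells cannot be told apart.

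All 9 genes carried a promoter peak in both libraries. Over all protein-coding genes that share was 61.7% in replicate 1, 55.1% in replicate 2 and 54.4% in both, so a promoter peak was common in this tissue. Each of the 9 territories held at least 1 peak in each library, as did 79.5% of all territories in replicate 1 and 70.6% in replicate 2. The level of each peak is the authors' signal density, whose scaling is not stated, and it is compared here within a library. The median densest promoter peak of the 9 genes had a density of 18.9 in replicate 1 and 10.1 in replicate 2, and the medians over all genes with a promoter peak were 9.43 and 5.56. In replicate 1, 7 of the 9 lay above the median of all genes, and in replicate 2, 6 of the 9 did. The replicate 2 value taken for Psmb8, 13.0, was that of a peak in the last part of Tap1. The peak at the Psmb8 start had 5.42 in that library, just below the all-gene median. Tap1 and Psmb9 share their peak, so it counts for both genes. The order of the genes was alike at its ends and not in its middle. The peak shared by Tap1 and Psmb9 was densest in each library and H2-K1 was last in each, whereas Tap2 and B2m stood above the all-gene median in replicate 1 and just below it in replicate 2.

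**Figure D1:**
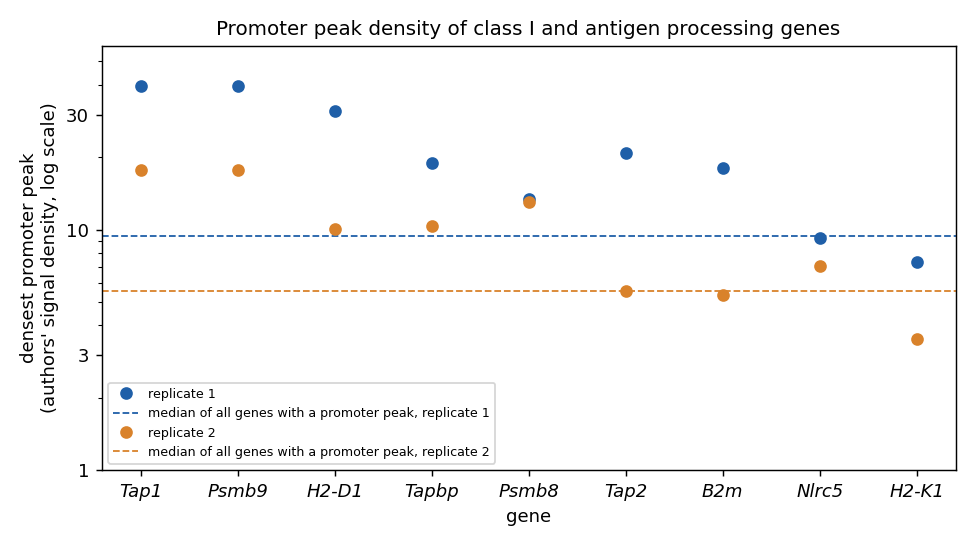
Signal density of the densest peak within 1 kb of each gene start (y axis, log scale, authors' density) for the 9 genes (x axis, ordered by mean). Points are the libraries and dashed lines the medians of all genes with a promoter peak, 9.43 in replicate 1 and 5.56 in replicate 2. Tap1 and Psmb9 share the densest peak (39.4 and 17.6), and H2-K1 lies lowest in each library (7.33 and 3.50). The replicate 2 point of Psmb8 is a peak in the last part of Tap1.

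H2-K1 (ENSMUSG00000061232, chr17:33996017-34000347, minus strand) encodes a classical class I heavy chain, the polymorphic chain that holds the peptide. Its promoter peak covered the same bases in both libraries, chr17:34000261-34000500, with a density of 7.33 in replicate 1 and 3.50 in replicate 2. Those values exceeded 43.5% and 36.5% of genes with a promoter peak, so this heavy chain gene had a promoter peak of middling density in each library. How reads of the CAST allele were mapped is not stated, and the effect on this polymorphic gene was not tested. Its territory held 6 peaks in replicate 1 and 1 in replicate 2 (3.50 ± 3.54, SD, n = 2), the widest relative gap of the 9 genes. Footprints numbered 22 and 7, and FDR bases covered 15.7% and 3.22% of the territory. The 5 peaks found in replicate 1 alone had densities between 0.428 and 3.98, the highest at chr17:34003541-34003740, upstream of the start. The 31-base words of that peak occurred a median of 2 times in the chromosomes, and 28.4% of all 31-base words of the H2-K1 territory occurred more than once, the largest share among the 9. Whether reads that map to more than 1 place bear on these counts was not tested.

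H2-D1 (ENSMUSG00000073411, chr17:35262730-35267499, plus strand), the other classical heavy chain of this strain background, stood higher in each library. Its promoter peak at chr17:35262901-35263100 had a density of 31 and 10.1, above 92.2% and 70.7% of genes with a promoter peak. The peak lies inside the gene body as GENCODE annotates it and just before the RefSeq start at 35263094. The territory held 4 and 3 peaks (3.50 ± 0.707, SD, n = 2), 15 and 12 footprints, and FDR bases over 14% and 9.98% of its length. All 3 replicate 2 peaks had a partner in replicate 1. Of the 31-base words of the territory 18.5% occurred more than once.

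A strong intergenic site lay upstream of H2-D1, at chr17:35258241-35258440, centred at -4389 bp from the gene start. Its density was 21.7 in replicate 1 and 5.90 in replicate 2, above 97.9% and 88.1% of the peaks of the respective lists. A weaker site stood at -3469 bp in replicate 1 (density 1.36) and -3459 bp in replicate 2 (1.31). The stronger site is printed on the plus strand because it was the densest intergenic peak of a heavy chain territory, with capitals for bases in a footprint of both libraries.
H2-D1 upstream site: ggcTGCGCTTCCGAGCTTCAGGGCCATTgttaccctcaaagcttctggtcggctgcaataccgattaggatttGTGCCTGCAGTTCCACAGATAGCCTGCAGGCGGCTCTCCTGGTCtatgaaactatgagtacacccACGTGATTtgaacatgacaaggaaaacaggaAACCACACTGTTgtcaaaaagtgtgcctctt
The protected bases came to 44.5% of this site. A protected run held AACCACA, the reverse complement of TGTGGTT, a core bound by RUNX factors, which are prominent in T cells. That match was footprinted in both libraries, whereas a TGTGGTT match footprinted in both libraries was found in 0.169% of 20150 RefSeq promoter windows of 300 bases. The site and the promoters are different kinds of window, so the share is background and not a comparison.

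The H2-K1 and H2-D1 promoters were nearly the same sequence where they aligned and were not footprinted alike. Over 190 aligned bases 174 were identical, or 91.6%. Each window held 250 bases, and bases left in gaps were not counted. The windows end at each RefSeq start, and TGACG lies at -39 bp in H2-K1 and -99 bp in H2-D1. Footprints past the H2-K1 start are therefore outside this comparison. Counting bases footprinted in both libraries, 28 aligned positions were protected in both genes, 39 in H2-D1 only, 20 in H2-K1 only and 103 in neither. The X2 core was in the protected set of each gene. The clearest difference was upstream of it, at the enhancer A element known to bind NF-kB, printed here with its match to GGNNTTNCC in capitals (chr17:34000439-34000468, minus strand, and chr17:35262914-35262943, plus strand).
H2-K1 NF-kB window: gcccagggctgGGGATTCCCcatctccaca
H2-D1 NF-kB window: cccagggctgGGGATTCCCcatctcctcag
The capital letters are the same in the 2 genes. The match was footprinted in both libraries in H2-D1 and in neither library in H2-K1. A further GGNNTTNCC match on the opposite strand, a few bases upstream, was footprinted in both libraries in H2-D1 and in replicate 1 alone in H2-K1. The H2-K1 peak was less dense than the H2-D1 peak in each library, and the part that density plays in calling a footprint was not tested. The mapping of CAST reads to these polymorphic genes is not stated either, and its part in the difference was not tested.

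B2m (ENSMUSG00000060802, chr2:122147686-122153083, plus strand) encodes beta-2 microglobulin, the invariant light chain that every class I heavy chain needs. It lies inside Patl2, a gene whose body spans the region. Its promoter peak at chr2:122147561-122147720 in replicate 1 and chr2:122147561-122147740 in replicate 2 had a density of 18.1 and 5.35, above 73.2% and 48.6% of genes with a promoter peak. B2m was the steadiest of the 9 in its peak count, with 4 peaks in each library, and each peak had a partner. Downstream of the start, a peak centred at 395 bp in replicate 1 and 345 bp in replicate 2 had densities of 4.31 and 1.51, and a peak at 1045 and 1035 bp had 3.75 and 1.57. The peak farthest downstream, at 8455 and 8475 bp, was weak, with densities of 0.947 and 0.690. Footprints numbered 17 and 11, and FDR bases covered 11.3% and 9.0% of the territory.

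**Figure D2:**
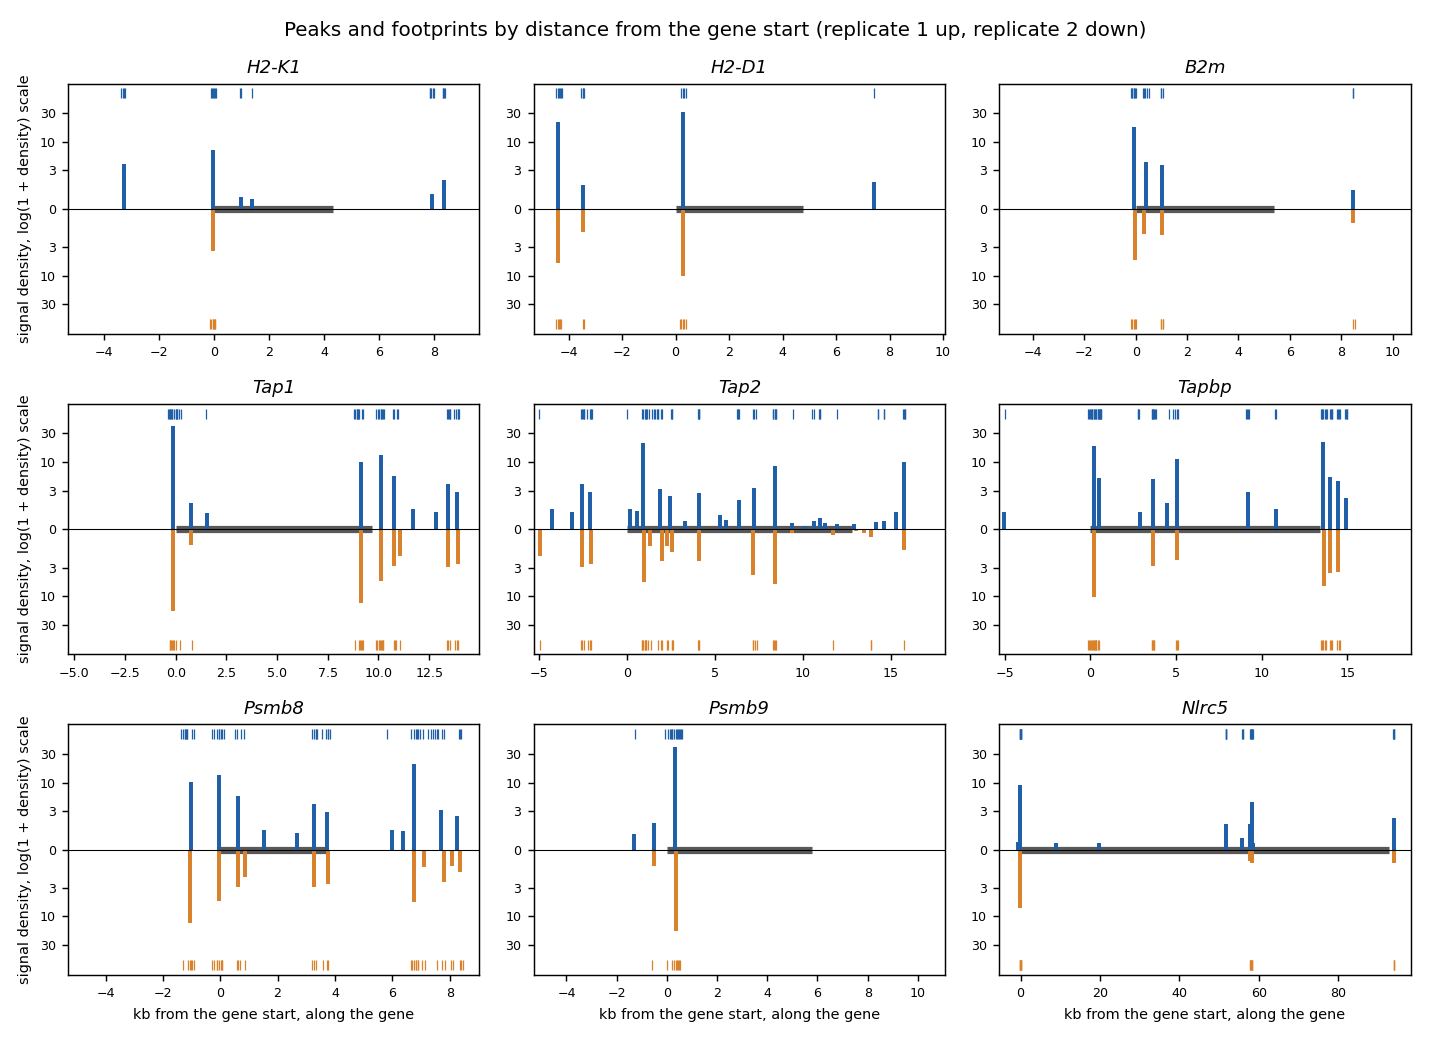
Peaks of each territory by distance from the gene start along the gene (x axis, kb), with authors' signal density on a log(1 + density) scale (y axis), replicate 1 upward in blue and replicate 2 downward in orange. Ticks at the outer edges are footprints and the grey bar is the gene body. Each gene has a peak near its start in both libraries, H2-K1 has 6 peaks above the line and 1 below it, and Tap2 has 27 and 17.

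Psmb9, Tap1, Psmb8 and Tap2 lie next to each other in the class II region of the MHC, and their territories overlap, so a peak there can count for more than 1 gene. Merged, the 9 territories made 6 stretches of 215.1 kb in all, which held 70 distinct peaks in replicate 1 and 40 in replicate 2 (55.0 ± 21.2, SD, n = 2). Of the 40 replicate 2 peaks 35 had a replicate 1 partner, or 87.5% (95% Wilson interval 73.9 to 94.5, counting error only), and of the 70 replicate 1 peaks 34 had a replicate 2 partner, or 48.6% (37.2 to 60.0). Both shares were close to those over all peaks, 88.8% and 46.9%.

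Tap1 (ENSMUSG00000037321, chr17:34187553-34197225, plus strand) encodes a subunit of the peptide transporter, and Psmb9 (ENSMUSG00000096727, chr17:34181987-34187764, minus strand) the immunoproteasome subunit also called LMP2. They start head to head, and 1 peak served as the promoter peak of each, at chr17:34187341-34187520 in replicate 1 and chr17:34187301-34187500 in replicate 2. Its density was 39.4 and 17.6, above 97.4% and 88.0% of genes with a promoter peak. A second, weak peak inside Tap1 at 738 bp in replicate 1 and 729 bp in replicate 2 from its start had densities of 1.59 and 0.798. The Tap1 territory held 10 and 8 peaks (9.0 ± 1.41, SD, n = 2), 46 and 33 footprints, and FDR bases over 35.8% and 19.4% of its length. That made it richer in peaks per 10 kb than 97.1% and 98.2% of genes, although 6 of its 10 replicate 1 peaks lay at or in Psmb8. The Psmb9 territory held 3 and 2 peaks, 15 and 9 footprints, and FDR bases over 11% and 7.24%, and no peak was called in the Psmb9 body besides the promoter peak.

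The shared promoter had the largest share of footprinted bases among the 6 promoter stretches examined. Over 225 bases, chr17:34187331-34187555, 52.0% of bases lay in footprints of both libraries, against 19.2% of 250 bases in H2-K1, 29.6% in H2-D1, 22.8% in B2m, 39.4% in the Psmb8 stretch and 21.7% in the Nlrc5 stretch. The stretches were not cut alike, so these shares are not a like-for-like comparison. Those of H2-K1, H2-D1 and B2m are the 250 bases before the start and run past the edge of the promoter peak. The Psmb8 and Nlrc5 stretches run from a peak edge to the start, and the shared stretch lies between the starts of Tap1 and Psmb9. Of the replicate 2 footprinted bases in the shared promoter 96.7% were footprinted in replicate 1 as well. A protected stretch, at chr17:34187368-34187397, held CCGCCC, the reverse complement of the SP/KLF core GGGCGG, shown in capitals.
Tap1 and Psmb9 SP/KLF window: cagactgaggccCCGCCCcatcatcgcgca
Matches footprinted in both libraries were TGACG, this SP/KLF core, a CCAAT and an E-box CAGNTG that overlaps TGACG. A footprinted SP/KLF core is common, found in both libraries in 25.0% of all RefSeq promoter windows. The CCAAT lies partly outside the replicate 1 footprint. Along Tap1 it stands upstream of TGACG, not downstream as in the class I module. Along Psmb9 it stands downstream, at -6 bp against -142 bp, but there TGACG reads on the opposite strand.

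Tap2 (ENSMUSG00000024339, chr17:34203527-34216321, plus strand), the other transporter subunit, had the largest number of peaks of the 9 in each library. Its territory held 27 peaks in replicate 1 and 17 in replicate 2 (22 ± 7.07, SD, n = 2), and 99.8% of genes had fewer per 10 kb in each library. FDR bases covered 68.9% of the territory in replicate 1 and 23.5% in replicate 2, so most of the territory was called in replicate 1 and far less in replicate 2. The counts of footprints were nearer, at 62 and 39. The densest peak within 1 kb of the Tap2 start was not at the start itself but at chr17:34204361-34204560 in replicate 1, centred at 934 bp in replicate 1 and 944 bp in replicate 2, with densities of 20.7 and 5.55. At the start itself only replicate 1 had a peak, of density 1.04. A further peak of replicate 1 alone, centred at 564 bp, had 0.942. An exonic peak, chr17:34211841-34212040 in replicate 1, had densities of 8.48 and 6.14 and was the densest of the territory in replicate 2, an intronic peak at 7204 and 7164 bp had 3.31 and 4.23, and an intergenic peak beyond the gene end, at 15764 and 15766 bp, had 10.2 and 1.09. When the replicate 1 list was reduced to its 67270 densest peaks, a step added after seeing the data, Tap2 had 15 peaks against 17 in replicate 2. In that reduced list all 10 Tap1 peaks, all 12 Psmb8 peaks and all 13 Tapbp peaks remained, whereas H2-K1 had 3 of 6 and Nlrc5 had 5 of 10.

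**Figure D3:**
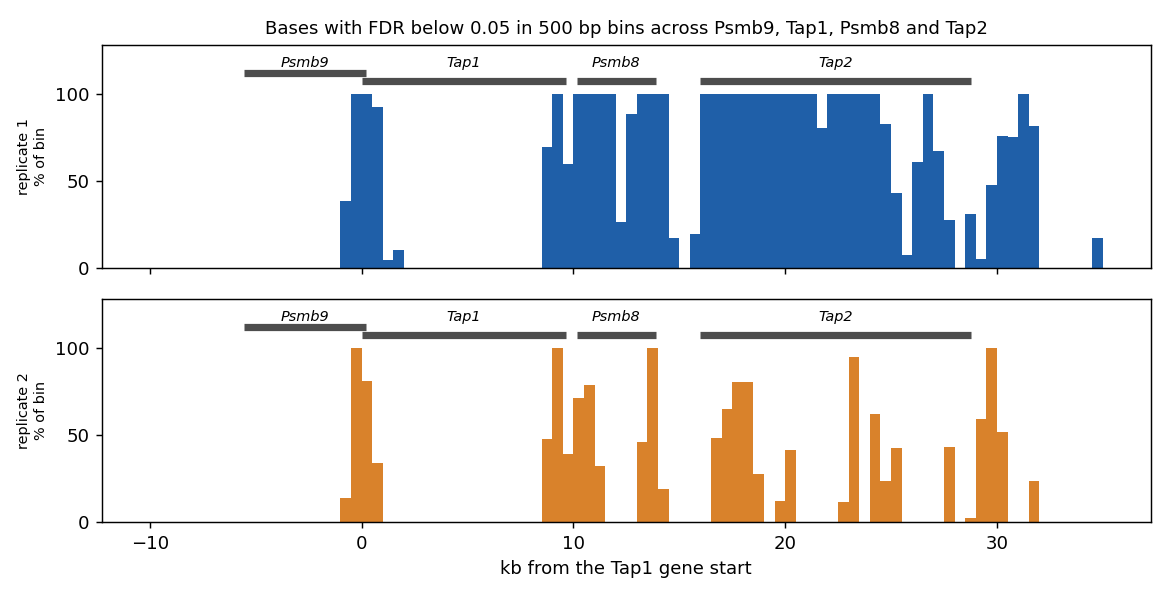
Percent of each 500 bp bin called with an FDR below 0.05 (y axis) by distance from the Tap1 start (x axis, kb), replicate 1 above and replicate 2 below, with gene bodies as grey bars. The head-to-head promoter and the end of Tap1 are called in both libraries, and from the Tap2 start replicate 1 is called almost without a break until toward the end of the gene, where the calls break up, while replicate 2 shows separate sites (68.9% and 23.5% of the Tap2 territory).

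Psmb8 (ENSMUSG00000024338, chr17:34197721-34201454, plus strand) encodes the immunoproteasome subunit LMP7, and its territory had the densest crowding of footprints of the set. It had 50 footprints in replicate 1 and 41 in replicate 2 (45.5 ± 6.36, SD, n = 2), or 36.4 and 29.9 per 10 kb, and 99.7% and 99.9% of genes had fewer per 10 kb. Its 12 and 11 peaks include 5 in each library that lie in or at Tap2. The footprint counts and ranks likewise include footprints that lie in Tap1 and in or at Tap2. The peak at its start, chr17:34197581-34197780 in replicate 1 and chr17:34197561-34197800 in replicate 2, had densities of 13.4 and 5.42. A peak in the last part of Tap1, chr17:34196581-34196800 in replicate 1, had 10.1 and 13.0 and was therefore the denser of the pair in replicate 2. Another peak, chr17:34198221-34198440 in replicate 1, with densities of 5.80 and 2.80, begins next to the RefSeq start at 34198195. Inside the gene a further peak, chr17:34200881-34201080 in both libraries, had 4.10 and 2.86. In the printed stretch before the start, 39.4% of bases were footprinted in both libraries, among them the whole TGACGTCA palindrome.

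Tapbp (ENSMUSG00000024308, chr17:33915899-33929292, plus strand) encodes tapasin, which bridges class I molecules and the transporter. Its territory held 13 peaks in replicate 1 and 6 in replicate 2 (9.5 ± 4.95, SD, n = 2), 61 and 33 footprints, and FDR bases over 26.8% and 13.0% of its length. The peak counted as its promoter peak, chr17:33916021-33916220 in replicate 1, had densities of 18.9 and 10.3, and it lies within 1 kb of the start of the neighbouring gene Zbtb22 as well. The peak at the RefSeq start of Tapbp, 33919478, was weaker, at chr17:33919461-33919700 in replicate 1 with densities of 5.06 and 2.76. An intronic peak at chr17:33920841-33921040 in both libraries had 11.2 and 2.00. A peak at chr17:33929401-33929620 in replicate 1, with 22 and 6.79 and the densest of the territory in replicate 1 only, and 2 further peaks shared by the libraries lay within 1 kb of the start of Rgl2, the gene downstream. All 6 replicate 2 peaks had a partner. A weak peak at chr17:33910784-33910934, found in replicate 1 alone, consisted of 31-base words with a median of 289 copies in the chromosomes.

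Nlrc5 (ENSMUSG00000074151, chr8:94434356-94527272, plus strand) encodes the co-activator of the class I promoters and is the longest gene of the set, with a territory of 102.9 kb. Its promoter peak was alike in rank in the libraries: chr8:94434201-94434440 in replicate 1 with a density of 9.24 and chr8:94434181-94434420 in replicate 2 with 7.05, above 49.4% and 57.7% of genes with a promoter peak. The remainder of the gene was sparsely called. It held 10 and 4 peaks in all, 26 and 18 footprints, and FDR bases over 2.94% and 1.23% of the territory. Per 10 kb that came to 0.972 and 0.389 peaks, near the medians over all genes of 0.873 and 0.450. Besides the promoter, 3 peaks were found in both libraries. An intronic peak centred at 57835 bp in replicate 1 and 57833 bp in replicate 2 had 1.52 and 0.498. The intronic peak next to it, at 58225 and 58199 bp, had 4.45 and 0.618. A peak past the gene end, at 94015 and 94033 bp, had 2.09 and 0.648. In the printed Nlrc5 stretch 21.7% of bases were footprinted in both libraries.

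Measured per 10 kb, the set as a whole lay above the usual gene, with Nlrc5 apart. The median of the 9 genes was 4.19 peaks per 10 kb in replicate 1 and 2.56 in replicate 2, against 0.873 and 0.450 over all genes. In replicate 1 all 9 exceeded the all-gene median and in replicate 2 all but Nlrc5 did. The measure depends on length, and the Nlrc5 territory of 102.9 kb was the longest of the 9. Counted per territory, the all-gene medians were 3 peaks in replicate 1 and 2 in replicate 2. By that count 8 and 7 of the 9 lay above, Nlrc5 among them with 10 and 4 peaks. For footprints the medians were 15.4 and 8.12 per 10 kb against 2.79 and 1.49, with all but Nlrc5 above in replicate 1 and all 9 above in replicate 2. For FDR bases they were 15.7% and 9.98% of the territory against 3.52% and 1.74%, with all but Nlrc5 above in each library. The overlapping territories of Psmb9, Tap1, Psmb8 and Tap2 count some peaks and footprints more than once in these medians. In all, the merged territories held 238 and 146 footprints (192 ± 65.1, SD, n = 2) and 34904 and 15796 FDR bases (25350 ± 13511, SD, n = 2). Per 10 kb of merged territory there were 3.25 and 1.86 peaks, 11.1 and 6.79 footprints, and 1622 and 734 FDR bases. The ratio between the libraries was 1.75 for peaks, 1.63 for footprints and 2.21 for FDR bases, and over the whole lists it was 1.90, 1.78 and 1.93. Of the footprints in these territories 42.4% in replicate 1 and 76.0% in replicate 2 overlapped one in the other library, and over all footprints 35.7% and 67.9% did.

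**Figure D4:**
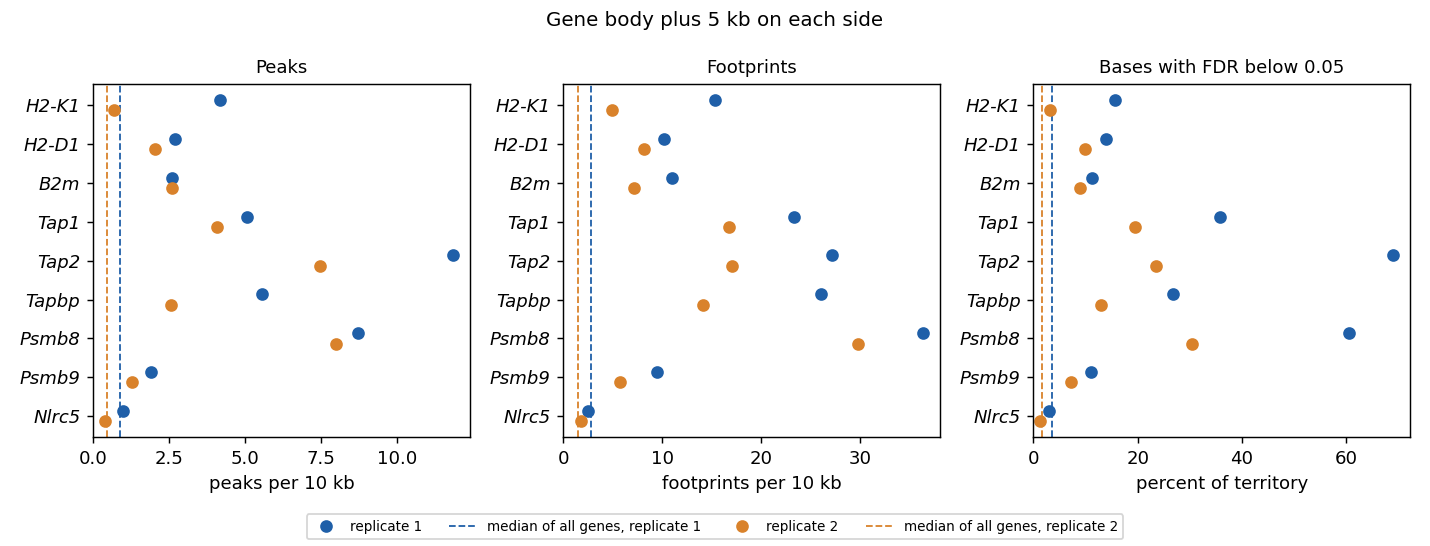
Peaks per 10 kb, footprints per 10 kb and percent of bases with an FDR below 0.05 (x axes) in the territory of each gene (y axis), replicate 1 in blue and replicate 2 in orange. Dashed lines are the medians of all protein-coding genes, 0.873 and 0.450 for peaks. Tap2 and Psmb8 lie farthest right in the panels and Nlrc5 lies at or near the lines.

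Transcription factor motifs were looked for on both strands of the RefSeq promoter windows, from 250 bases before to 50 after each start. Windows were found for 7 of the 9 genes. A match is a description of the letters and says nothing about which protein was bound. A match to at least 1 motif, footprinted in both libraries, was present in 5 of the 7 (71.4%), namely H2-K1, H2-D1, B2m, Tap1 and Psmb9, and in 34.7% of 20150 promoters. The background includes promoters that were not called open: 54.4% of all genes had a promoter peak in both libraries, whereas all of these genes did. Members were counted by gene and the background by window. What these differences add to the member share, here and by motif below, was not tested. Tap1 and Psmb9 start head to head and share promoter DNA, so they are not separate evidence.

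By motif, TGACG was present and footprinted in both libraries in those same 5 genes, whereas 24.2% of all promoters held it and 7.90% held it footprinted in both. The Y box CCAAT was present in 6 of the 7 and footprinted in both libraries in H2-K1, Tap1 and Psmb9, against 37.8% and 6.15% of all promoters. TGACG followed on the same strand by ATTGG within 10 to 35 bases, the spacing of the X2 and Y boxes, was found in H2-K1, H2-D1 and B2m and in 1.10% of all promoters. In each of these 3 genes the pair spanned 30 bases from end to end. Its midpoint, which lies between the boxes and in neither of them, was footprinted in both libraries in B2m alone and in 0.437% of all promoters. Taken box by box, H2-K1 was the only one of these 3 genes with TGACG and ATTGG each footprinted in both libraries. The ATTGG of the pair was footprinted in replicate 1 alone in B2m and in neither library in H2-D1. The X1 core GCAAC was present in H2-D1, Tap1 and Psmb9 and footprinted in both libraries in none, against 34.8% and 4.30% of all promoters.

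Interferon-linked letters were searched in the same way. GAANNGAAA, the core of the interferon-stimulated response element (ISRE), was present in H2-K1 and H2-D1 and in 6.98% of all promoters, and it was footprinted in both libraries in neither gene and in 0.288% of all promoters. The gamma-activated sequence TTCNNNGAA was present in Psmb8 alone, without a footprint, and in 7.74% of all promoters. GGNNTTNCC was present in H2-K1, H2-D1 and B2m and footprinted in both libraries in H2-D1, against 16.2% and 1.32% of all promoters. GGGCGG was present in Tap1, Psmb9 and Tapbp and footprinted in both libraries in Tap1 and Psmb9, against 47.8% and 25.0% of all promoters. CAGNTG was present in H2-D1, Tap1 and Psmb9 and footprinted in both libraries in Tap1 and Psmb9, against 48.3% and 3.57%. CCGGAAG (ETS), CTTTGAA (TCF/LEF) and the full palindrome TGACGTCA had no match in the 7 windows, against 11.9%, 4.48% and 2.31% of all promoters. The Psmb8 palindrome lies outside its RefSeq window, at the start given by GENCODE. TGTGGTT was found in Tapbp, without a footprint, and in 4.66% of all promoters.

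**Figure D5:**
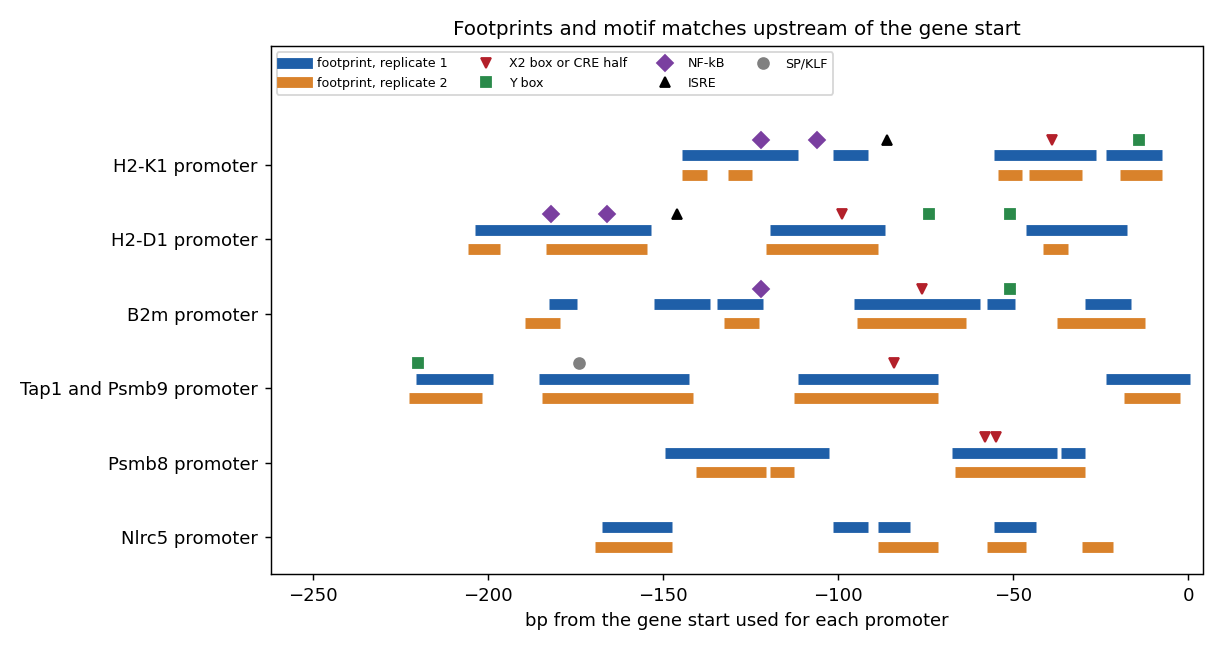
Footprints of replicate 1 (blue) and replicate 2 (orange) and motif matches (symbols) by distance from the start used for each promoter (x axis, bp), for 6 promoters. The TGACG match is footprinted in both libraries in the 5 promoters that hold it, the ISRE matches of H2-K1 and H2-D1 lie outside footprints, and the NF-kB matches are covered in both libraries in H2-D1 only.

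The rest of the pathway was followed through 4 lists, whose counts of promoter peaks stand beside 61.7% of all genes in replicate 1, 55.1% in replicate 2 and 54.4% in both. For these genes the window was set at the GENCODE gene start alone, so a peak at another transcript start was not counted. Among 14 other class I heavy chain genes a promoter peak was present at 13 in replicate 1 and at 11 in replicate 2, with a median density of 3.99 and 3.83, below the all-gene medians. H2-T24 had the most territory peaks of these, 9 and 7, and H2-M2 had none in either library. Of 8 genes for peptide loading and trimming 7 had a promoter peak in both libraries. Tapbpl, which encodes the tapasin-like editor TAPBPR, had the most peaks, 27 and 11, and Ide, an insulin-degrading protease, had 3 and 1 and no promoter peak.

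Of 10 proteasome genes 9 had a promoter peak in both libraries (54.4% of all genes). Psme2, a subunit of the interferon-inducible proteasome activator, had the most territory peaks, 7 and 4, and Psmb6, the constitutive subunit that Psmb9 replaces, had the fewest, 1 and 1. Psmb11, the thymoproteasome subunit made in cortical thymic epithelium, was the gene without a promoter peak, with 2 and 1 peaks elsewhere in its territory. That territory overlaps the one of Psmb5, so a peak can count for both. In replicate 2 each held 1 peak and 434 FDR bases, and the Psmb5 peak was its promoter peak. Of 18 regulators 16 had a promoter peak in both libraries (54.4% of all genes), with median densities of 17.6 and 11.3. Nfkb1 had the most peaks, 21 and 14, and Irf9, a subunit of the interferon-activated complex ISGF3, the fewest, 2 and 1. Nfyc, an NF-Y subunit, and Ciita, the co-activator of class II genes and a relative of Nlrc5, had no promoter peak in either library. Their territories held 8 and 4 peaks and 7 and 3 peaks, and their other transcript starts were not examined.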

How the data were processed

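DNase-seq libraries from thymus of 2 animals, 1 library each, were analysed from the deposited tables. Per the labels the build is mm10; the aligner and callers, with versions, were not given in the sources used here. The authors' peak lists give a signal density per peak, whose scaling is not stated; of each library's 2 deposited lists the longer was used. The deposited FDR table gives q-values for runs of bases and lists only those below 0.05. The deposited footprints carried 0.01 in every line, so only positions were used.

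From these, peaks, footprints and FDR bases overlapping by at least 1 bp were counted per library in each territory of GENCODE M21 protein-coding genes, and motifs were searched in RefSeq promoters (GRCm38.p6). Tap2 and Nlrc5 had no entry in that table. No test was run: 2 libraries of 1 group allow only description, and n = 2 gives an SD between animals of little precision. Named were all 9 genes, their promoter peaks and part of their shared peaks. Per pathway list, the genes with the most and the fewest territory peaks, summed over the libraries, and those without a promoter peak were named. The genes, lists and motifs were chosen with earlier results of these data known. Alternatives covered the peak list, windows, flanks, FDR limit and footprint edges. Counting was tested on simulated data with 0 failures in 500 overlap counts. Python 3.11.15, numpy 2.4.6, pandas 2.3.3, scipy 1.17.1 and matplotlib 3.10.9 were used.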

Additional observations from a re-analysis of the deposited data

How the results depend on the processing

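Most values moved by less than the spread between the libraries. All 9 genes kept a promoter peak in both libraries with the shorter list, with any annotated transcript start and with the denser 50% of peaks; within 500 bp of the start 8 did, since the densest promoter-window peak of Tap2 lies farther in and replicate 2 had none nearer. The mean peak count of 55.0 ranged from 37.5 (denser 50%) to 68.0 (10 kb flanks), and from 40.0 to 70.0 with 1 library left out. The mean footprint count of 192 fell to 127 over gene bodies alone, where less DNA is counted, and ranged from 146 to 238 with 1 library left out. The mean of 25350 FDR bases was 20186 at a limit of 0.001 and ranged from 15796 without replicate 1 to 34904 without replicate 2. The share of replicate 2 peaks with a partner, 87.5%, ranged from 85.0% to 90.9% under the alternatives planned at the start; with the replicate 1 list reduced to the length of the replicate 2 list, chosen after seeing the data, it was 82.5% and the mean peak count 45.0. The count of 5 promoters with a footprinted motif was the same under each of its alternatives. No paired analysis was possible because there is 1 group and no second condition. Depth is not stated, so a peak that was not called in a library is not shown to be absent from it.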
